A study of Mus musculus with 20 samples.

Results

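The genes described here are the cadherins and protocadherins of the mouse cortex: all protein-coding genes of the count table whose symbol is Cdh with a number or begins with Pcdh, and which reached 10 counts in at least 3 of 20 libraries. Of 25317 rows in the table, 57 belong to the family by symbol and 48 of these met the count rule. The 48 members are 3 type I cadherins, 11 type II cadherins, the atypical cadherin Cdh13, 4 delta-1 and 5 delta-2 protocadherins, Pcdh15 and Pcdh20, 20 genes of the protocadherin beta cluster, and 1 row each for the alpha and gamma clusters. The other 9 were Cdh1, Cdh3, Cdh5, Cdh19, Cdh23, Cdh26, Pcdh12, Pcdhb1 and Pcdhb2. Close to the limit, Pcdhb6 and Pcdhb22 reached the count in 4 libraries and Cdh19 in 2, and 26 members reached it in all 20.

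Cadherins are calcium-dependent adhesion proteins of the cell surface. Classical type I and type II cadherins bind like partners on the neighbouring cell and are anchored to actin through catenins, and in the cortex they help to sort neurons into layers and to match synaptic partners. Protocadherins have a different cytoplasmic part: those of the delta group recruit actin regulators such as the WAVE complex, while the clustered ones are switched on in varying combinations in single neurons and give each cell an identity used for self-avoidance of its branches. Genes of the alpha and gamma clusters join a variable first exon to constant exons shared by the whole cluster, whereas mouse beta genes are separate genes of similar sequence.

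The study asked how a heterozygous deletion of the transcription factor gene Foxp2 in the cortex changes gene expression. All animals were C57BL/6 mice, 3 months old, with 1 animal per sample. In the main comparisons there were 3 heterozygous animals (het729, het786, hetBT13) and 5 wild types (wt734, wt736, wt785, wtBT13, wtBT14), each with an IP library, made from RNA pulled down with ribosomes by anti-GFP serum, and an Input library, made from the lysate just before the pull-down. Another 4 heterozygous libraries, from het730 and hetBT14, are labelled Input but have titles ending in IX or IXX and no IP, so they enter only as a comparison set. Neither the cells that carried the GFP tag nor the driver of the deletion is named in the labels. Values are always listed in the order of animals given above.

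Library totals ran from 4061562 to 5754169 counts in IP and from 2782934 to 4072270 in Input, and from 2689544 to 5621906 in the IX and IXX libraries. Foxp2, the deleted gene, averaged 46.5 ± 12.9 CPM (read counts relative to library size, with TMM scaling) in heterozygous IP against 69.5 ± 21.2 CPM in wild-type IP, and 27.8 ± 3.52 CPM in heterozygous Input against 47.0 ± 10.8 CPM in wild-type Input (SD, n = 3 and 5). It was not called in either fraction (edgeR, adjusted p = 0.981 and 0.501). In IP against Input of wild types, 5 of 5 glutamatergic and 5 of 8 layer 6 corticothalamic marker genes were called higher, and 7 of 7 interneuron, 8 of 9 astrocyte, 6 of 7 oligodendrocyte, 4 of 4 striatal and 4 of 4 blood marker genes were called lower. The remaining astrocyte marker was called higher. Of 5 layer 5 markers, 3 were called lower and 1 higher, and of 6 upper layer markers, 3 lower and 2 higher. Of 7 microglia markers 4 were called lower, and of 5 oligodendrocyte precursor markers tested, 2 lower and 1 higher. Over all genes tested, 28.5% were called higher and 25.6% lower. The IP of het729 stood apart in its summed blood markers, at 458 CPM against 18.2 to 56.2 in the other IP libraries, and in its summed striatal markers, at 626 CPM against 327 to 438.

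The start regions of Cdh18, Cdh7 and Pcdh10 are shown because these genes carry the contrasts described below: the IP increase of Cdh18 in heterozygotes was among the largest, Cdh7 was the only member called lower in IP, in wild types, and Pcdh10 had the smallest p for a difference between genotypes in that increase. Each runs from 250 bases before to 50 bases after a RefSeq start on GRCm38.p6, plus strand, 5′ to 3′. Capitals mark a match to TATTTGT, one of 3 forkhead-type motifs searched on both strands (TGTTTAC or TATTTAT or TATTTGT).
Cdh18, chr15:23036213-23036512: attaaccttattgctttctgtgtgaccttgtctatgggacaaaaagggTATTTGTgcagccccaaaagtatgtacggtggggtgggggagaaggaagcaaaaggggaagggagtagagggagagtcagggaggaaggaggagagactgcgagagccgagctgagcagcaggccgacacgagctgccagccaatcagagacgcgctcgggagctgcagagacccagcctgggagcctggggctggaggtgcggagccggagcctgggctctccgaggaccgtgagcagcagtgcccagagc
Cdh7, chr1:109982650-109982949: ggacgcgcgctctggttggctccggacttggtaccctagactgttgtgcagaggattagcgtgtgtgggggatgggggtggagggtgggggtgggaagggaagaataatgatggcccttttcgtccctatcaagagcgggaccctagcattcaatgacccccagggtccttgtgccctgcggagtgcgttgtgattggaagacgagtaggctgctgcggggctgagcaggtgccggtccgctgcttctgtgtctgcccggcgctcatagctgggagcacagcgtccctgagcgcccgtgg
Pcdh10, chr3:45378148-45378447: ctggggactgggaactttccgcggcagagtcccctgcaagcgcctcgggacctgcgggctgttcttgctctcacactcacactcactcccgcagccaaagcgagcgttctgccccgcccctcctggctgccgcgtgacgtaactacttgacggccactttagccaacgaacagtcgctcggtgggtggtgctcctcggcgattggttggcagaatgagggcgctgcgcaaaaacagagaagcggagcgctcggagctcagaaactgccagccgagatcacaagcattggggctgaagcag

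Of the 48 members, 20 matched the promoter table, with 23 windows. Any of the 3 motifs was present in 11.8% of all 32851 windows and in 1 of the 23 member windows, that of Cdh18, where TATTTGT begins at position 49 of the window. TATTTGT alone was in 3.63% of all windows. The Cdh18 window lies at a start inside the GENCODE gene, which begins at 22549022, and Cdh7 has 3 windows, of which the first is printed. Each sequence is rich in CpG for its length: Pcdh10 holds 24 CpG, Cdh7 18 and Cdh18 12, against a median of 7 over all windows. A match of letters is a description only, and binding of Foxp2 was not measured.

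Counting limits what a row can say about some members. The annotation (GENCODE M21, GRCm38) holds 14 alpha, 22 beta and 21 gamma genes, of which 1, 22 and 1 have a row here. The alpha row (ENSMUSG00000007440, chromosome 18, 37005203 to 37187657, named Pcdha11) and the gamma row (ENSMUSG00000023036, chromosome 18, 37815079 to 37841873, named Pcdhgc4) overlap exons of other genes of their clusters. Which transcripts these rows cover is not stated, so they are called the alpha row and the gamma row and get no value per gene. Beta genes resemble each other and Pcdhb21 overlaps Pcdhb22, so the split of reads among them is uncertain. Cdh8, Cdh9, Cdh12, Pcdh7, Pcdh8, Pcdh10, Pcdh19 and Pcdhb12 share exon positions with other genes, and the libraries do not mark strand.

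A few rows carry most of the family's RNA. The gamma row, Cdh13, the alpha row and Pcdh9 held 22.2%, 10.8%, 10.5% and 10.2% of the family's counts, together 53.7%. The whole family took 0.147% to 0.184% of the counts in IP libraries and 0.0936% to 0.119% in the Input libraries of the same animals. Its summed level was 1379, 1451 and 1409 CPM in heterozygous IP against 1709, 1452, 1583, 1609 and 1426 CPM in wild-type IP, and 1072, 1037 and 1135 CPM in heterozygous Input against 1243, 1153, 1136, 1239 and 1237 CPM in wild-type Input. All 8 IP libraries lay above all 8 Input libraries. Heterozygotes and wild types overlapped in IP, and in Input the highest heterozygote lay just below the lowest wild type, while the IX and IXX libraries of heterozygotes spanned 989 to 1222 CPM.

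Levels of different genes were compared per kilobase of exon, which leaves out the cluster rows. Heterozygous libraries gave 20.6 CPM per kb for Pcdh9 and 15.3 for Cdh13 in IP, and 17.8 and 9.50 in Input. In wild-type IP, the delta-1 protocadherin Pcdh9 stood first at 22.2 CPM per kb, followed by Cdh13 at 16.7, Cdh22 at 9.06, Cdh2 at 8.49, Pcdhb9 at 7.17, Pcdh7 at 5.80 and Cdh4 at 5.49. In wild-type Input the first 4 were in the same order, at 20.1, 10.3, 8.14 and 5.47 CPM per kb, and Cdh4 came next at 4.20. Pcdhb9 ranked 5 in wild-type IP and 12 in wild-type Input, and Cdh9 ranked 8 and 15. The beta genes were mostly low: their median was 0.884 CPM per kb in heterozygous IP and 0.873 in wild-type IP, against 0.514 in heterozygous Input and 0.546 in wild-type Input.

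Most of the family was higher in the pulled-down RNA than in the lysate. In heterozygotes 19 of 46 members tested were called higher (edgeR quasi-likelihood test with animal as a block, Benjamini-Hochberg adjusted p below 0.05), or 41.3%, where 22.6% of all 14797 genes tested were called higher, and 0 were called lower, where 22.1% of all genes were. In wild types 27 of 46 were called higher, or 58.7%, where 28.5% of all genes were, and 1 member, Cdh7, was called lower, where 25.6% of all genes were. The median log2 change of the tested members was 0.59 in heterozygotes against 0.04 over all genes, and 0.56 in wild types against 0.03. Both genotypes shared 16 called members, which is 84.2% of the heterozygous calls and 59.3% of the wild-type ones.

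Without the count filter all 48 members could be fitted, and 44 had positive changes in heterozygotes and 46 in wild types. The 48 had themselves been chosen by a count rule, which the mostly deeper IP libraries met more easily. Cdh24 and Pcdhb8 met it in IP libraries only, and the 9 family genes that missed it are not in these counts. With the filter 3 of 46 were negative in heterozygotes and 2 of 46 in wild types, where 47.3% and 47.7% of all genes were. Animal by animal, between 34 (wtBT14) and 46 (wt785) of the 48 members were higher in IP than in Input. In heterozygotes the count of calls was 16 without het729, 13 without het786 and 17 without hetBT13.

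**Figure D1:**
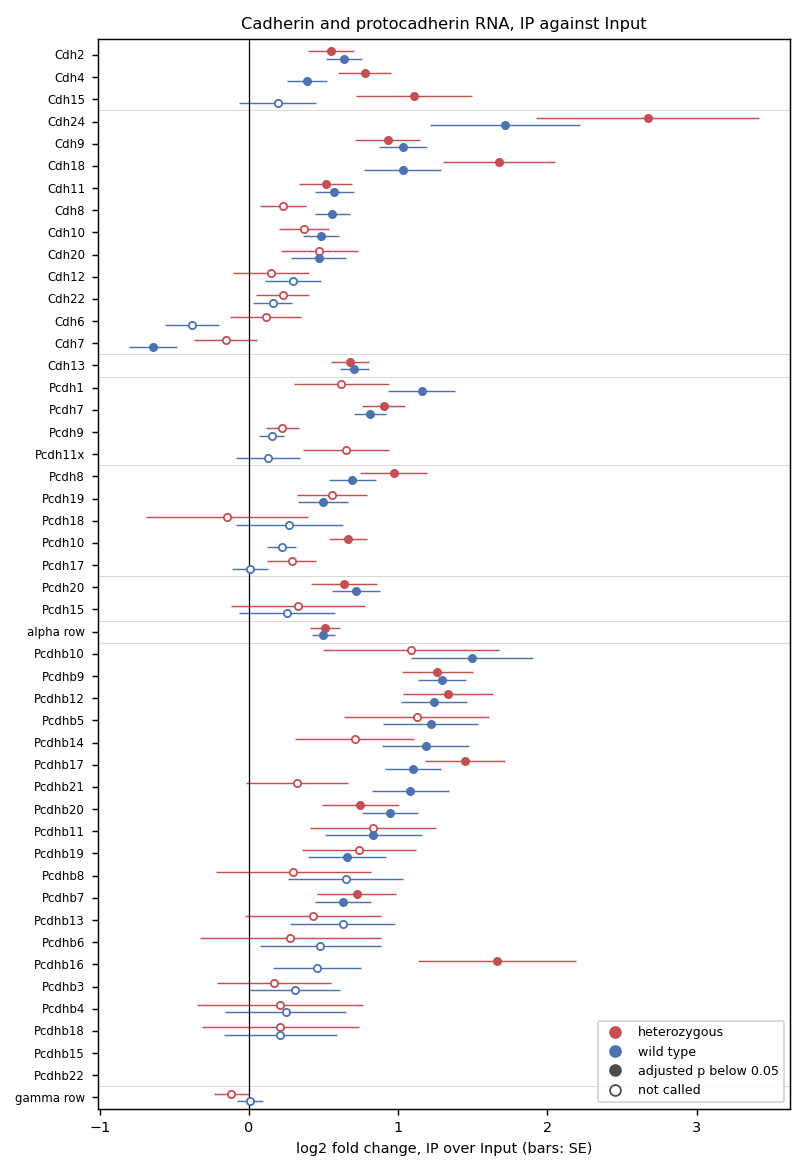
Log2 fold change of IP over Input for each member, with SE, in heterozygous (red) and wild-type animals (blue), grouped by class from type I cadherins at the top to the gamma row at the bottom. Filled points have an adjusted p below 0.05, Pcdhb15 and Pcdhb22 were not tested, and nearly all points lie to the right of 0, with Cdh7 as the filled point to its left.

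Among type I cadherins, Cdh2 (N-cadherin, which links pre- and postsynaptic membranes) was at 68.3, 58.6 and 52.5 CPM in heterozygous IP against 48.3, 33.4 and 41.0 CPM in heterozygous Input. In wild types it was at 74.6, 71.9, 74.4, 70.9 and 50.6 CPM in IP against 46.0, 35.3, 43.7, 44.8 and 51.0 CPM in Input. Each heterozygote and 4 of 5 wild types were higher in IP, and the fractions met only at wtBT14, whose IP lay just below its Input. Its log2 change was 0.55 (SE 0.16, edgeR adjusted p = 0.00667) in heterozygotes and 0.64 (SE 0.12, adjusted p = 9.91e-05) in wild types. Without het786 the heterozygous change of Cdh2 was 0.43 and missed the threshold (edgeR adjusted p = 0.0843). Cdh4 (R-cadherin, a close relative of Cdh2) rose by 0.77 (SE 0.18, adjusted p = 0.00135) in heterozygotes and 0.39 (SE 0.13, adjusted p = 0.0172) in wild types, where the call was lost without wt734, wt736 or wt785 (adjusted p = 0.0711, 0.103 and 0.0743). Cdh15 (M-cadherin, best known from muscle) was called in heterozygotes only (log2 1.11, SE 0.39, adjusted p = 0.0241, against 0.19, SE 0.26, adjusted p = 0.547 in wild types), at 5.41 ± 2.12 CPM in heterozygous IP and 2.50 ± 1.92 CPM in heterozygous Input. That call of Cdh15 was lost without het729 or hetBT13 (edgeR adjusted p = 0.064 and 0.116), without the animal block (0.0754) and with DESeq2 (0.0512).

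Cdh13 (T-cadherin, chromosome 8, 118283733 to 119324921), which is held to the membrane by a lipid anchor and has no cytoplasmic part, was the most abundant cadherin. It stood at 142, 183 and 192 CPM in heterozygous IP against 117, 93.7 and 110 CPM in heterozygous Input. In wild types it stood at 176, 147, 205, 200 and 209 CPM in IP against 107, 96.6, 109, 155 and 111 CPM in Input. Every animal was higher in IP, and the groups overlapped only through the Input of wtBT13. The log2 change was 0.68 (SE 0.12, edgeR adjusted p = 0.000172) in heterozygotes and 0.71 (SE 0.10, adjusted p = 2.48e-06) in wild types.

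The 11 type II cadherins were split. In heterozygotes 4 rose, 0 fell and 7 did not pass, and in wild types 7 rose, 1 fell and 3 did not pass. Over all genes 22.6% rose and 22.1% fell in heterozygotes, and 28.5% rose and 25.6% fell in wild types. Cdh9, which in the mouse hippocampus guides mossy fibre synapses, was at 17.7, 13.4 and 12.4 CPM in heterozygous IP against 9.39, 5.83 and 7.63 CPM in heterozygous Input, and at 15.7, 14.2, 19.0, 20.1 and 20.5 CPM in wild-type IP against 9.68, 7.43, 8.62, 9.19 and 8.55 CPM in wild-type Input. The fractions did not overlap in either genotype, and the log2 change was 0.93 (SE 0.22, edgeR adjusted p = 0.00157) in heterozygotes and 1.03 (SE 0.16, adjusted p = 1.13e-05) in wild types.

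Cdh18, a type II cadherin of the nervous system whose start region is printed above, was lower in level but moved as much. It was at 11.8, 6.25 and 6.26 CPM in heterozygous IP against 1.30, 2.92 and 3.62 CPM in heterozygous Input, and at 5.51, 8.89, 7.72, 9.96 and 7.52 CPM in wild-type IP against 2.96, 3.98, 3.73, 3.62 and 5.07 CPM in wild-type Input. IP and Input did not overlap in either genotype. Its log2 change was 1.68 (SE 0.38, edgeR adjusted p = 0.00106) in heterozygotes and 1.03 (SE 0.26, adjusted p = 0.00204) in wild types. Without het729 the heterozygous change was 0.93 and missed the threshold (adjusted p = 0.0668). Cdh24 had the largest changes of all, 2.67 (SE 0.75, adjusted p = 0.00591) in heterozygotes and 1.71 (SE 0.50, adjusted p = 0.00641) in wild types, from very low levels of 0 to 0.783 CPM in heterozygous Input and 0.278 to 2.01 CPM in wild-type Input. In heterozygotes Cdh24 had 4.23 without het729, and its call was lost without het786 (1.98, edgeR adjusted p = 0.0691) or hetBT13 (2.34, adjusted p = 0.0578). In wild types it had 2.31 without wt785. Cdh24 reached 10 counts in 6 libraries, all of them IP, so it met the count rule only through the fraction where it is high.

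Cdh11 (OB-cadherin, first known from bone) rose by 0.51 (SE 0.18, edgeR adjusted p = 0.0212) in heterozygotes and 0.57 (SE 0.13, adjusted p = 0.000888) in wild types. The heterozygous call of Cdh11 needed all 3 animals: it was lost without het729, het786 or hetBT13 (edgeR adjusted p = 0.111, 0.0761 and 0.0523), and also with DESeq2 (0.054). Cdh8 and Cdh10 had 0.23 (SE 0.15) and 0.37 (SE 0.17) in heterozygotes, without a call (edgeR adjusted p = 0.24 and 0.0742), and rose by 0.56 and 0.48 in wild types (adjusted p = 0.000353 and 0.00185). Cdh20 had 0.47 in both genotypes and was called in wild types alone (adjusted p = 0.144 in heterozygotes and 0.0377 in wild types). The wild-type call of Cdh20 was lost without wt734, wt736 or wtBT13 (edgeR adjusted p = 0.119, 0.0706 and 0.21), without the block (0.0579) and with DESeq2 (0.108).

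Cdh7 went the other way. It was at 13.5, 18.4 and 17.9 CPM in heterozygous IP against 20.3, 17.8 and 16.5 CPM in heterozygous Input, and at 12.2, 12.8, 14.6, 13.1 and 15.2 CPM in wild-type IP against 24.7, 20.4, 14.1, 23.1 and 24.4 CPM in wild-type Input. Among heterozygotes only het729 was lower in IP, and 4 of 5 wild types were, the exception being wt785. Cdh7 was not called in heterozygotes (log2 -0.16, SE 0.21, edgeR adjusted p = 0.565) and fell in wild types (-0.64, SE 0.16, adjusted p = 0.00196), but the difference between genotypes was not called either (log2 0.48, SE 0.26, adjusted p of 1). Cdh6, a type II cadherin of developing cortical areas and retina, had 0.11 (SE 0.24) in heterozygotes and -0.38 (SE 0.18, edgeR adjusted p = 0.0806) in wild types, with no call. Cdh12 and Cdh22 were not called in either genotype.

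Among delta-1 protocadherins, Pcdh7 was at 58.6, 61.4 and 55.8 CPM in heterozygous IP against 29.7, 32.4 and 31.7 CPM in heterozygous Input, and at 79.4, 63.8, 69.9, 49.2 and 45.3 CPM in wild-type IP against 35.8, 35.6, 35.9, 35.9 and 30.7 CPM in wild-type Input. The fractions stayed apart in both genotypes, and wild-type IP spread far more than wild-type Input. Pcdh7 rose by 0.90 (SE 0.14, edgeR adjusted p = 3.65e-05) in heterozygotes and 0.81 (SE 0.11, adjusted p = 2.29e-06) in wild types. Pcdh1 was not called in heterozygotes (log2 0.62, SE 0.32, edgeR adjusted p = 0.119) and rose in wild types (1.16, SE 0.22, adjusted p = 0.000156). Pcdh9, the family's highest gene per kilobase, was not called: it averaged 140 ± 9.08 CPM in heterozygous IP against 121 ± 20.2 CPM in heterozygous Input, and 150 ± 14.4 CPM in wild-type IP against 137 ± 21.3 CPM in wild-type Input (SD, n = 3 and 5 animals). Its log2 change was 0.22 (SE 0.11) in heterozygotes and 0.15 (SE 0.09) in wild types.

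Delta-2 protocadherins differed from one another. Pcdh8 (arcadlin), which is induced by neuronal activity and drives uptake of N-cadherin from synapses, was at 17.4, 21.7 and 17.6 CPM in heterozygous IP against 11.0, 11.99 and 5.62 CPM in heterozygous Input, and averaged 22.9 ± 4.32 CPM in wild-type IP against 14.1 ± 1.93 CPM in wild-type Input. It rose by 0.97 (SE 0.22, edgeR adjusted p = 0.00133) in heterozygotes and 0.69 (SE 0.16, adjusted p = 0.000818) in wild types. Pcdh19, an X-linked gene mutated in a human epilepsy of females, had 0.56 (SE 0.23, edgeR adjusted p = 0.0565) in heterozygotes, without a call, and rose in wild types (0.50, SE 0.17, adjusted p = 0.0162), a call lost without wtBT13 or wtBT14 (adjusted p = 0.0971 and 0.0985). Pcdh17, which guides axons that extend together, was level across fractions in wild types, at 48.3 ± 6.33 CPM in IP and 47.98 ± 4.90 CPM in Input (log2 0.01, SE 0.12, adjusted p = 0.964).

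Pcdh10 (OL-protocadherin, chromosome 3, 45378398 to 45435623), which binds the WAVE complex and takes part in removing excitatory synapses, was the member whose change differed most between genotypes by p. It is named here after its values were seen. It was at 65.1, 71.7 and 63.3 CPM in heterozygous IP against 44.9, 44.1 and 37.0 CPM in heterozygous Input, and at 74.1, 68.0, 59.2, 45.6 and 54.3 CPM in wild-type IP against 53.8, 51.5, 56.6, 43.7 and 52.6 CPM in wild-type Input. All 8 animals were higher in IP, the heterozygous fractions did not overlap and the wild-type ones did. The log2 change was 0.66 (SE 0.13, edgeR adjusted p = 0.000269) in heterozygotes and 0.22 (SE 0.10, adjusted p = 0.0596) in wild types, a difference of 0.44 (SE 0.16) that did not pass over all genes (adjusted p of 1). Pcdh10 in the IX and IXX libraries was at 53.3 to 69.3 CPM, above all 3 heterozygous Input libraries of the comparison.

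Of 46 members tested for a difference of the IP effect between genotypes, 0 were called, as were 0 of 14797 genes (0.0%), and 1 member, Pcdh10, had an unadjusted p below 0.05, where 3.07% of all genes did. Members called in only 1 genotype, such as Cdh8, Cdh10, Cdh15 and Pcdh1, are therefore not shown to differ between genotypes. With simulated data this test recovered 44.8% of genes whose effect differed 2-fold and 6.25% of those that differed 1.5-fold. The simulation gave all genes the same spread and no effect of animal, so these shares need not hold for the members.

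**Figure D2:**
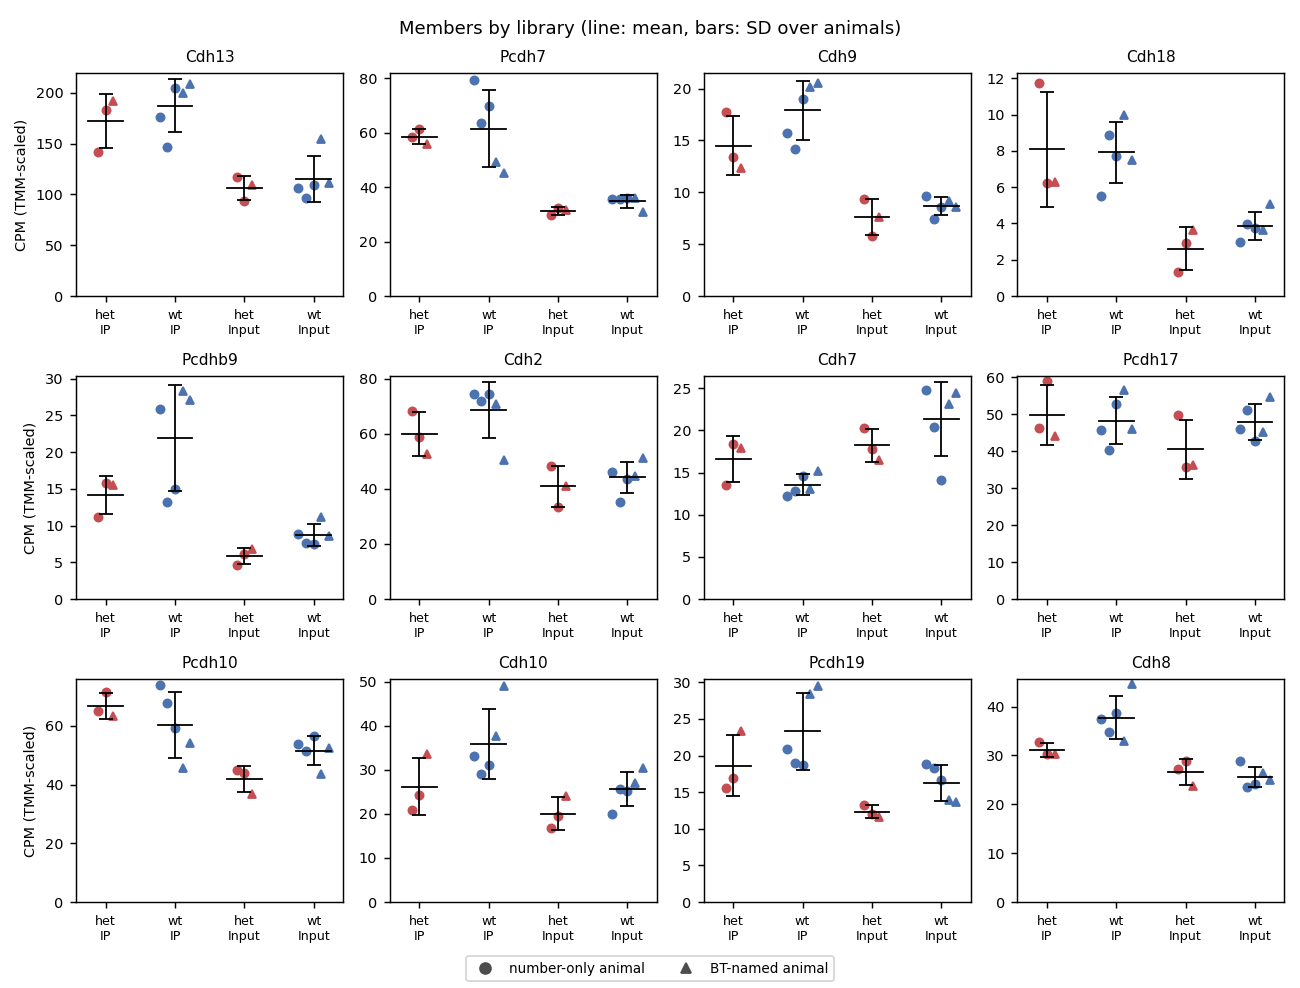
CPM of 12 members in each library: heterozygous IP, wild-type IP, heterozygous Input and wild-type Input from left to right, with the mean and SD over animals (n = 3 or 5) and triangles for animals with BT in their name. Cdh13, Pcdh7, Cdh9, Cdh18 and Pcdhb9 are higher in IP, Cdh7 is lower in wild-type IP, and Pcdh17 is level.

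The clusters behaved differently from each other. The beta cluster, 20 members whose single-exon genes encode adhesion domains without a shared constant part, summed to 92.5, 107 and 117 CPM in heterozygous IP against 49.6, 52.5 and 71.9 CPM in heterozygous Input, and to 147, 114, 116, 153 and 131 CPM in wild-type IP against 64.8, 68.2, 61.5, 82.1 and 71.6 CPM in wild-type Input. No IP sum reached down to an Input sum in either genotype. All 18 beta genes tested had positive changes in both genotypes. Pcdhb8 met the count rule in IP libraries only and Pcdhb10 almost only there, so for them the rule favoured a positive change. Called higher were 6 of 18 in heterozygotes and 11 of 18 in wild types, where 22.6% and 28.5% of all genes were, and 0 were called lower, where 22.1% and 25.6% of all genes were.

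Pcdhb9 was the beta gene of highest level in IP of both genotypes. It was at 11.2, 15.8 and 15.6 CPM in heterozygous IP against 4.70, 6.16 and 6.83 CPM in heterozygous Input, and at 25.9, 13.3, 15.01, 28.3 and 27.1 CPM in wild-type IP against 8.88, 7.70, 7.47, 11.1 and 8.55 CPM in wild-type Input. IP lay above Input in every animal with no overlap, and in wild-type IP wt736 and wt785 were near the heterozygotes while the other 3 were far above them. Here the log2 change was 1.26 (SE 0.24, edgeR adjusted p = 0.000197) in heterozygotes and 1.29 (SE 0.16, adjusted p = 8.61e-07) in wild types.

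Other beta genes called in both genotypes were Pcdhb7, Pcdhb12, Pcdhb17 and Pcdhb20, by 0.72, 1.33, 1.45 and 0.75 in heterozygotes and 0.63, 1.24, 1.10 and 0.95 in wild types. The heterozygous call of Pcdhb20 was lost without het729, het786 or hetBT13 (edgeR adjusted p = 0.0872, 0.0876 and 0.0559), without the block (0.0632) and with DESeq2 (0.0713). That of Pcdhb7 was lost without het729 or hetBT13 (edgeR adjusted p = 0.272 and 0.0506) and with DESeq2 (0.0897). Pcdhb16 was called in heterozygotes alone, at 1.66 (SE 0.53, edgeR adjusted p = 0.014), from a level of 0.926 ± 0.593 CPM in heterozygous Input, and lost its call without het786 (adjusted p = 0.0636) or the block (0.0506). In wild types Pcdhb16 had 0.46 (SE 0.30, edgeR adjusted p = 0.199). Pcdhb10 (1.49, SE 0.41), Pcdhb5 (1.22, SE 0.32), Pcdhb14 (1.18, SE 0.29), Pcdhb21 (1.08, SE 0.26), Pcdhb11 (0.83, SE 0.33) and Pcdhb19 (0.66, SE 0.26) were called in wild types alone. In heterozygotes, without a call, their changes were 1.09, 1.13, 0.71, 0.32, 0.83 and 0.74 in the same order. Pcdhb11 lost its call without wt734, wt785, wtBT13 or wtBT14 (edgeR adjusted p = 0.0649, 0.0613, 0.14 and 0.0546) and with DESeq2 (0.0887). Pcdhb19 lost it without wt734, wt785 or wtBT14 (edgeR adjusted p = 0.0974, 0.106 and 0.216), without the block (0.0805) and with DESeq2 (0.121).

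The alpha row was called higher in both genotypes and the gamma row in neither. The alpha row was at 143, 171 and 164 CPM in heterozygous IP against 110, 115 and 108 CPM in heterozygous Input, and at 189, 164, 165, 170 and 145 CPM in wild-type IP against 125, 114, 107, 120 and 125 CPM in wild-type Input. IP and Input did not overlap, and the log2 change was 0.51 (SE 0.10, edgeR adjusted p = 0.000322) in heterozygotes and 0.50 (SE 0.08, adjusted p = 1.24e-05) in wild types. The gamma row, at the family's highest counts, was at 278, 274 and 266 CPM in heterozygous IP against 275, 284 and 329 CPM in heterozygous Input, and at 379, 287, 323, 305 and 235 CPM in wild-type IP against 318, 301, 294, 290 and 310 CPM in wild-type Input. The fractions overlapped widely, and the log2 change was -0.12 (SE 0.11, edgeR adjusted p = 0.42) in heterozygotes and 0.01 (SE 0.09, adjusted p = 0.96) in wild types.

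**Figure D3:**
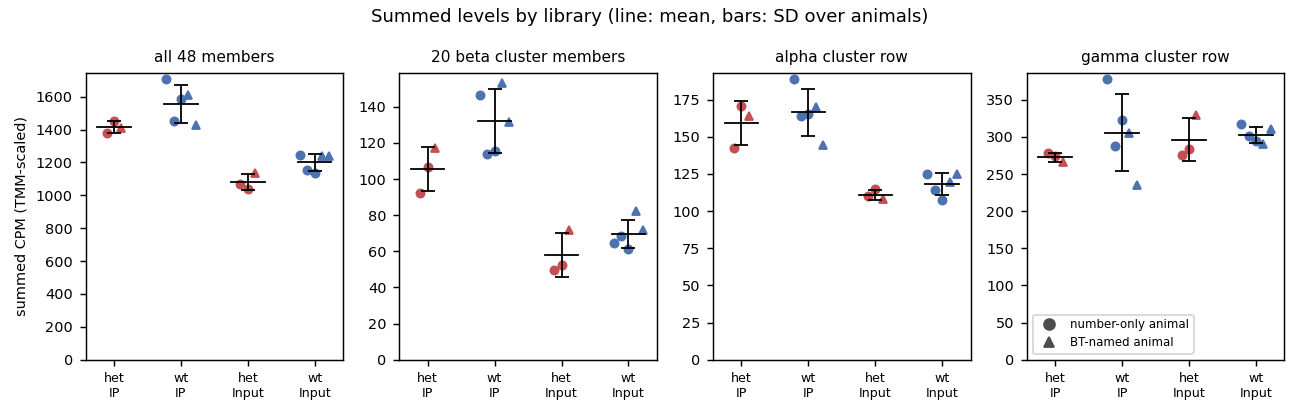
Summed CPM in each library for all 48 members, the 20 beta cluster members, the alpha row and the gamma row, in heterozygous IP, wild-type IP, heterozygous Input and wild-type Input from left to right, with mean and SD over animals (n = 3 or 5). IP lies above Input in the first 3 panels, and the gamma row does not separate the fractions.

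Exon length moved with the IP effect across the whole table. With genes put by exon length into 4 equal groups, from shortest to longest, 16.3%, 27.8%, 31.9% and 38.7% were called higher in wild-type IP, and the members held 0, 16, 12 and 18 genes in these groups, of which 0, 9, 7 and 11 were called. The tested members had a median of 5292 exon bases, against 4092 over all genes. The part of exon length in the members' changes was not tested. Nor was that of the cell types whose markers moved with the pull-down: summed interneuron markers were at 509 to 588 CPM in heterozygous IP against 1157 to 1254 CPM in heterozygous Input, and at 487 to 645 CPM in wild-type IP against 1080 to 1198 CPM in wild-type Input. In samples of whole tissue, fewer cells of a type and less RNA per cell cannot be told apart. Endothelial markers summed to at most 15.6 CPM in any library compared, and the vascular members of the family, Cdh5 and Pcdh12, missed the count rule.

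The 43 genes listed as binding partners and regulators of the family had 38 tested. In heterozygotes 17 rose and 6 fell in IP, and in wild types 19 rose and 5 fell. Of all genes tested, 22.6% rose and 22.1% fell in heterozygotes and 28.5% rose and 25.6% fell in wild types. Those with the largest increases in wild types were the giant atypical cadherin gene Fat1 (log2 1.65, SE 0.28), the seven-pass cadherin gene Celsr2 (1.28, SE 0.08), Smchd1, a silencer of protocadherin clusters (1.13, SE 0.18), the cohesin subunit genes Smc3 (1.10, SE 0.09) and Rad21 (0.98, SE 0.10), and Afdn, an adherens junction scaffold gene (1.04, SE 0.12). Celsr2 averaged 195 ± 22.0 CPM in wild-type IP against 80.4 ± 8.01 CPM in wild-type Input (SD, n = 5). Those that fell were Vcl (vinculin, log2 -1.23, SE 0.31) and the WAVE complex genes Brk1 (-0.44, SE 0.08), Abi2 (-0.37, SE 0.09), Cyfip2 (-0.30, SE 0.09) and Abi1 (-0.23, SE 0.08). Partner genes and members were read in the same libraries.

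Between genotypes no member was called. In IP, 0 of 48 members and 0 of 14755 genes passed with edgeR (0.0%), and 5 members had an unadjusted p below 0.05 with lower values in heterozygotes, where 3.08% of all genes did. On the higher side there were 0, where 1.02% of all genes were. The 5 include Pcdhb22, which reached 10 counts in 4 libraries, wild-type IP or IX and none of them heterozygous IP. It thus met the count rule mainly through the group where it is high. In Input, 0 of 36 members tested and 0 of 13870 genes passed (0.0%), and 6 members had an unadjusted p below 0.05 on the lower side, where 3.79% of all genes did, and 0 on the higher side, where 3.27% did. DESeq2 called 0 members in either fraction. These unadjusted counts depend on single animals. In IP there were 2 on the lower side without het729, wt734 or wtBT13, where 3.11%, 3.06% and 2.18% of all genes were. Without wt736, wt785 or het786 there were 6 in IP, where 4.10%, 2.87% and 2.62% of all genes were. In Input there were 2 without wt734, 3 without wt736 and 4 without wt785 or het786. The shares of all genes there were 3.33%, 3.63%, 4.32% and 2.71%. By DESeq2 the count in Input was 1 of 36, or 2.78%, where 2.54% of all genes were.

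The signs of the members leaned to lower values in heterozygotes. In IP 36 of 48 changes were negative, where 49.3% of all genes had negative changes, with a median log2 of -0.23 against 0.00 over all genes. In Input 33 of 36 were negative, where 48.7% of all genes were, with a median of -0.22 against 0.01. Without the count filter, 42 of 48 were negative in Input. With the IX and IXX libraries included, 30 of 36 were negative in Input and the median was -0.12. Without one animal at a time, 33 to 38 of the 46 to 48 members tested were negative in IP, or 68.8% to 79.2%. In Input 31 to 34 of the 36 to 39 tested were, or 79.5% to 91.7%, the lowest being 31 of 39 without het786. The members share the same libraries, so these counts are not independent observations.

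**Figure D4:**
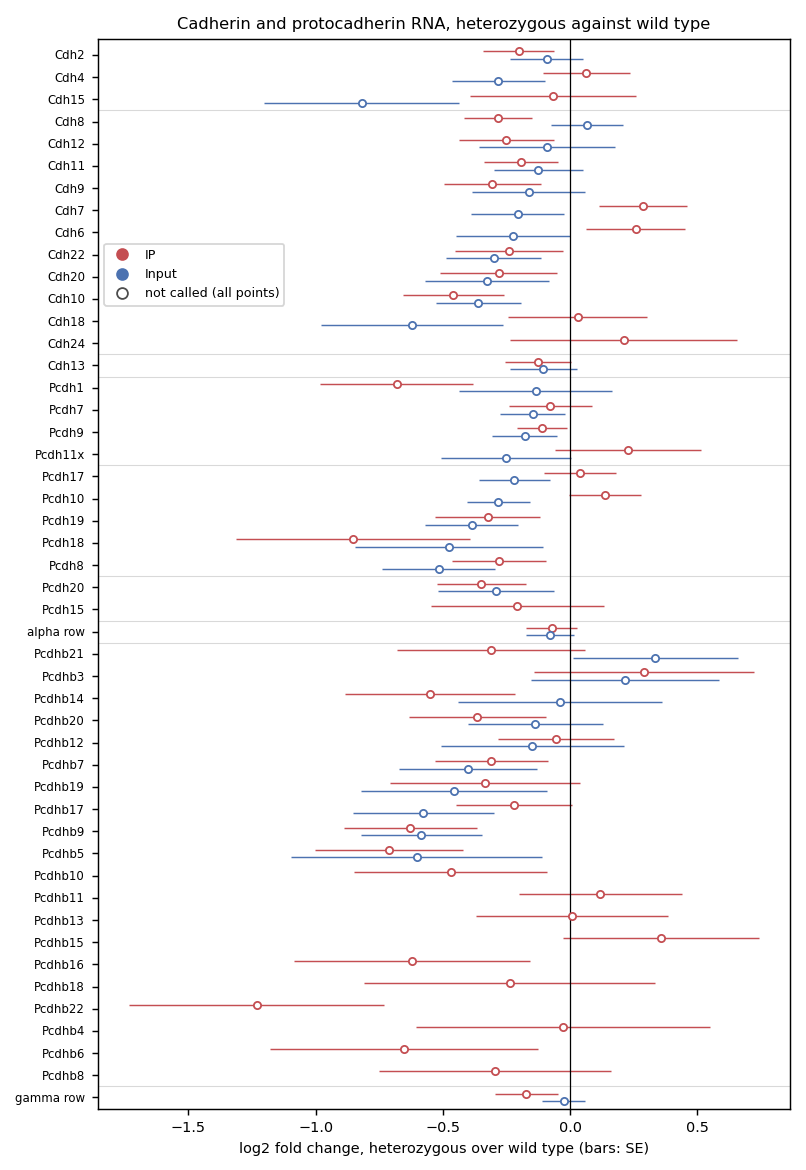
Log2 fold change of heterozygous over wild type for each member, with SE, in IP (red) and Input (blue). No point has an adjusted p below 0.05, and most points lie to the left of 0, with SEs that often reach it.

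Pcdhb9 had the smallest p in Input. By the values given above, heterozygotes and wild types overlapped in IP and did not in Input. The log2 change was -0.63 (SE 0.26, edgeR adjusted p = 0.981) in IP. In Input it was -0.59 (SE 0.24, edgeR adjusted p = 0.681). The ratio of heterozygotes to wild types in IP was 56.1% among BT-named animals and 74.9% among the others, and in Input 69.4% and 67.7%. The IX and IXX libraries held 5.48 to 10.6 CPM, which overlaps wild-type Input, and with them the change was -0.32.

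In Input, groups that did not overlap and were lower in heterozygotes were found for 2 of the 36 members tested, Pcdhb9 and Pcdh19, where 2.86% of all genes tested had such groups. Pcdhb16, too low in Input to be tested and so outside that share, also had groups apart, at 0.522, 0.648 and 1.61 CPM in heterozygous Input against 5.38, 2.12, 2.01, 1.95 and 4.43 CPM in wild-type Input. The IX and IXX libraries of heterozygotes held 1.98 to 2.80 CPM of Pcdhb16, within the wild-type range of Input. Pcdh19 was at 13.3, 11.99 and 11.7 CPM in heterozygous Input against 18.8, 18.3, 16.7, 13.9 and 13.6 CPM in wild-type Input, so hetBT13 and both BT-named wild types were the lowest of their groups. In the fit the log2 change of Pcdh19 was -0.39 (SE 0.18, edgeR adjusted p = 0.696). The IX and IXX libraries held 11.8 to 23.6 CPM of Pcdh19, across the wild-type range of Input. In IP, groups apart on the lower side were found for Pcdhb5 and Cdh8, where 1.74% of all genes had them. Groups apart on the higher side were found for 0 members, where 1.83% of all genes had them in IP and 2.42% in Input. Pcdhb5 was at 4.21, 3.49 and 3.72 CPM in heterozygous IP against 6.17, 4.68, 6.46, 9.30 and 4.77 CPM in wild-type IP (log2 -0.71, SE 0.29, edgeR adjusted p = 0.981). Cdh8 was at 32.8, 30.3 and 30.3 CPM against 37.5, 34.8, 38.8, 33.0 and 44.6 CPM in the same groups (log2 -0.28, SE 0.13, edgeR adjusted p = 0.981).

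Cdh10, a type II cadherin of the group that binds Cdh6 and Cdh9, had an unadjusted p below 0.05 in both fractions, which come from the same animals. It was at 20.9, 24.3 and 33.5 CPM in heterozygous IP against 33.2, 29.0, 31.1, 37.6 and 49.0 CPM in wild-type IP, and at 16.7, 19.4 and 24.1 CPM in heterozygous Input against 19.9, 25.7, 25.3, 27.0 and 30.4 CPM in wild-type Input. In both fractions hetBT13 lay among the wild types and the other heterozygotes below every wild type. The log2 change was -0.46 (SE 0.20, edgeR adjusted p = 0.981) in IP and -0.36 (SE 0.17, adjusted p = 0.695) in Input. Among BT-named animals the ratio was 77.4% in IP and 84.0% in Input, and among the others 72.6% and 76.4%.

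Other members with an unadjusted p below 0.05 were Pcdh1 in IP, at 8.78, 11.0 and 3.89 CPM in heterozygotes against 15.2, 14.2, 13.1, 11.96 and 8.25 CPM in wild types (log2 -0.68, SE 0.30, edgeR adjusted p = 0.981), and Pcdhb22, named for this count, with -1.23 (SE 0.50) from levels of 1.01 ± 0.408 CPM in heterozygous IP against 2.35 ± 1.22 CPM in wild-type IP. Pcdhb22 met the count rule without any heterozygous IP library. In Input the other members were Pcdh8 (-0.52, SE 0.22, edgeR adjusted p = 0.683), Pcdh10 (-0.28, SE 0.12, adjusted p = 0.687) and Cdh15 (-0.82, SE 0.38, adjusted p = 0.696). Cdh15 rests on hetBT13, at 0.402 CPM, where het729 and het786 had 4.17 and 2.92 CPM and wild types 3.72 to 5.70 CPM, and without hetBT13 the change was -0.43. Pcdh10 went to -0.00 once the IX and IXX libraries were included. The highest positive changes by p were small or uneven, in IP Cdh7 (0.29, SE 0.17), Cdh6 (0.26, SE 0.19), Pcdh10 (0.14, SE 0.14), Pcdh11x (0.23, SE 0.29) and Pcdhb3 (0.29, SE 0.43), and in Input Pcdhb21 (0.34, SE 0.33), Pcdhb3 (0.22, SE 0.37) and Cdh8 (0.07, SE 0.14), none of them called.

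The abundant rows were close between genotypes. The alpha row had a log2 change of -0.07 (SE 0.10) in IP and -0.08 (SE 0.10) in Input, the gamma row -0.17 (SE 0.13) and -0.03 (SE 0.09), Cdh13 -0.13 (SE 0.13) and -0.11 (SE 0.13), and Pcdh9 -0.11 (SE 0.10) and -0.18 (SE 0.13). The other 44 members summed to 666, 691 and 649.5 CPM in heterozygous IP against 801, 702, 757, 769 and 698 CPM in wild-type IP, and to 471, 419 and 449.5 CPM in heterozygous Input against 542, 522, 512, 511 and 556 CPM in wild-type Input. In both fractions every heterozygote lay below every wild type, in IP by 691 against 698 CPM at the nearest. With all 48 members the groups overlapped in IP. How often sums of other gene sets separate in this way was not tested. The IX and IXX libraries held 468 to 577 CPM of these 44 members, across the wild-type range of Input. Beta genes summed lower on average in heterozygotes (106 ± 12.4 against 132 ± 17.8 CPM in IP, 58.0 ± 12.1 against 69.6 ± 7.93 CPM in Input, SD, n = 3 and 5), with overlap in both fractions.

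Marker genes of other cells were read in the same libraries, and 0 of them were called between genotypes in either fraction (edgeR), as were 0 of all genes. Astrocyte markers were lower in heterozygotes for 7 of 9 genes in IP and 8 of 9 in Input, with sums of 568 to 623 CPM in heterozygous IP against 610 to 810 CPM in wild-type IP, and 893 to 974 CPM in heterozygous Input against 1021 to 1529 CPM in wild-type Input, while the IX and IXX libraries spanned 767 to 1266 CPM. Microglia markers were lower for 7 of 7 genes in IP and 6 of 7 in Input, with sums of 64.9 to 86.0 CPM in heterozygous IP against 82.3 to 108 CPM in wild-type IP. Mural markers were lower for 4 of 4 genes tested in both fractions, with sums that did not overlap in IP, at 23.0 to 37.7 CPM in heterozygotes against 39.0 to 47.8 CPM in wild types, and did in Input, at 46.0 to 60.7 against 52.8 to 67.4 CPM. Oligodendrocyte precursor markers were lower for 5 of 5 genes tested in IP (median log2 -0.93) and 2 of 5 in Input, with sums of 46.9 to 94.4 CPM in heterozygous IP against 61.1 to 100.3 CPM in wild-type IP. Blood markers were higher for 4 of 4 genes in both fractions (median log2 2.01 in IP and 1.56 in Input), with het729 far above the other heterozygotes, whose blood sums in IP were 18.2 and 33.2 CPM against 23.4 to 56.2 CPM in wild types. Layer 6 corticothalamic markers were higher in heterozygotes for 6 of 8 genes in both fractions. These 8 include Foxp2, the deleted gene, which was lower in both. Interneuron markers were higher for 5 of 7 genes in IP and 6 of 7 in Input, and striatal markers for 3 of 4 in both. Oligodendrocyte markers were lower for 6 of 7 genes in IP and 5 of 7 in Input, and upper layer markers for 4 of 6 in both. Glutamatergic markers summed to 592 to 621 CPM in heterozygous IP against 574 to 625 CPM in wild-type IP, and to 424 to 469 CPM in heterozygous Input against 380 to 468 CPM in wild-type Input. The part of these cells in the members' values was not tested. With simulated data of this size, the genotype test recovered 27% of genes changed 1.5-fold and 73.4% of those changed 2-fold in IP, and 26.3% and 77.5% in Input. Smaller changes were not simulated.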

How the data were processed

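The deposited table holds unnormalized counts for 20 libraries, 1 row per Ensembl gene. The submitters' processing notes name HTSeq and the mm10 build, and no aligner, annotation release or strand option is given in the sources used here. Per the labels' protocols, the libraries were made with Smart-seq2, which marks neither strand nor single molecules. All values were whole numbers, and 0 columns of samples were left unmapped.

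Of 25317 rows, 24873 were matched to a gene name. Biotype, position and exon length came from GENCODE M21 (GRCm38). Counts were tested in R 4.3.3 with edgeR 4.0.16: filterByExpr with a count minimum of 10, TMM scaling, robust quasi-likelihood F tests, and Benjamini-Hochberg adjustment over all genes tested, with a threshold of 0.05. IP against Input in each genotype and the difference of these effects were fitted together on 16 libraries, the animal being a block term. Genotype was tested within IP and within Input, 3 against 5 libraries. CPM are the counts scaled by TMM over all 20 libraries. Values per kilobase divide them by the exon length of GENCODE M21. Errors are SD over animals or SE of a log2 change. The SE was worked back from the test, as the size of the change divided by the square root of F. It is unreliable for changes very near 0.

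Pairing of IP with Input rests on the protocol, in which 1 lysate per animal gives both. Deviations of the 2 libraries of an animal from their group means correlated with r from 0.0592 to 0.240 across 14797 genes. Alternatives were RLE scaling, DESeq2 1.42.0, no count filter, a count minimum of 30, no block, the form of the animal names as a covariate, the IX and IXX libraries added (summed per animal), and each animal left out. On simulated data the heterozygous IP test recovered 9.84%, 75% and 95.5% of genes changed 1.5-, 2- and 3-fold, with 6 of 130 calls false, and the wild-type one 26.3%, 90.8% and 98.7%, with 7 of 156 false. The simulation gave every gene the same spread, added no effect of animal, and changed only genes above a minimum level. Its recoveries and false calls therefore need not hold for members of other spread or lower counts.

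The members and lists were chosen with earlier results of these data known. Named in wild-type IP against Input were called members with a mean of at least 2 CPM, up to 15 by size per direction, in heterozygotes also those called there, and between genotypes the 5 members of smallest p per direction at that level. Cdh24, Pcdhb22, members of smaller change and members not called were named after their values were seen.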

Additional observations from a re-analysis of the deposited data

Results flagged for a closer look

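In 76 groups of 5 wild-type libraries examined for named members, 5 held a sample far from the others, and chance alone flags about 1 in 20 groups. The ratio given for each is the gap of that sample to its nearest neighbour divided by the range of the group. Cdh13 in wild-type Input had a gap of 0.749, with wtBT13 at 155 CPM and the others at 96.6 to 111 CPM. Cdh2 in wild-type IP had a gap of 0.845, with wtBT14 at 50.6 CPM and the others at 70.9 to 74.6 CPM. Cdh20 in wild-type IP had a gap of 0.767, with wtBT13 at 16.6 CPM and the others at 11.1 to 12.3 CPM. Pcdh7 in wild-type Input had a gap of 0.932, with wtBT14 at 30.7 CPM and the others at 35.6 to 35.9 CPM. Pcdhb16 in wild-type IP had a gap of 0.82, with wt734 at 9.68 CPM and the others at 2.44 to 3.74 CPM.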

How the results depend on the processing

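The number of members higher in IP was 19 in heterozygotes and ran from 14 (DESeq2) to 23 (no count filter) over the other settings. In wild types it was 27 and ran from 21 (count minimum of 30, 30 members tested) to 27. With animals left out one at a time it ran from 13 to 20 in heterozygotes and from 23 to 27 in wild types, and the number lower in wild-type IP from 1 to 2 (2 without wt785). Without the replicate block, which pairs IP and Input of an animal, 17 members were higher and 0 lower in heterozygotes, and 25 higher and 1 lower in wild types. Between genotypes 0 members were called under any setting run. Over all genes, the difference of the IP effects gave 11 calls without a count filter, genotype in IP gave 3 with DESeq2, and genotype in Input gave 28 without a filter. The causes were not tested. Under RLE scaling or DESeq2 42 of 46 members were positive in wild types, against 44. Values near 0 changed sign. In wild types Pcdh17 was at -0.016 under RLE, -0.014 with DESeq2 and -0.007 with the higher count minimum, the gamma row (Pcdhgc4) at -0.017 under RLE, -0.0171 with DESeq2 and -0.0084, and without single animals they ran from -0.068 to 0.094 and from -0.061 to 0.10, and Cdh15 from -0.041 to 0.33. In heterozygous IP, without single animals, Pcdhb10 ran from -0.023 to 1.77, Pcdhb21 from -0.22 to 0.58, Cdh7 from -0.28 to 0.066 and Cdh6 from -0.17 to 0.34. Between genotypes Pcdh11x ran from -0.060 to 0.43 and Pcdhb3 from -0.50 to 0.70 in IP, Cdh8 from -0.0024 to 0.13 in Input, and Pcdhb3 was at -0.19 in Input with the IX and IXX libraries. Depth limits the beta genes most: 12 members could not be tested between genotypes in Input.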
